A study of Mus musculus with 28 samples.

Results

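The regions described here gained an H3K9me2 domain in both cell states of a mouse embryonic stem cell (mESC) culture after loss of the histone methyltransferase EHMT2. They were chosen from 4 deposited domain sets as bases of chromosomes 1 to 19 that lay in a domain in mESC dTAG and in 2CLC dTAG and in no domain of mESC DMSO or 2CLC DMSO. Segments under 1 kb apart were merged and runs of at least 25 kb were kept. This gave 797 regions, of 17542 runs of at least 25 kb with 1 pattern over the 4 sets. The presence of domains in the dTAG sets and their absence in the DMSO sets is therefore the rule and not a result. Domains were called from percentiles of the signal, and whether these were set separately for each condition is not stated, so a gained domain is a change in the call and is not read here as a rise in the amount of the mark.

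All cells carried the endogenous Ehmt2 gene fused to a degron (dTAG) with an mCherry reporter and a MERVL-GFP reporter, which the labels write as EHMT2-dTAG-mcherry MERV-GFP. They came from KH2 mESCs, a BL6/129 hybrid line, and the sorted chromatin came from 1 clone. Cultures received the degrader dTAG-13, which removes the tagged protein, or its solvent DMSO for 72 h and were then sorted by GFP, with negative cells taken as mESCs and positive cells as 2-cell-like cells (2CLCs), which share features with the embryo at the 2-cell stage and are rare in culture. Each of the 4 sorted conditions had 3 immunoprecipitation and 3 input libraries made by ULI-NChIP, in which nuclease-cut native chromatin of few cells is immunoprecipitated. Unsorted mESCs, kept 24 h in DMSO, contributed 2 immunoprecipitation and 2 input libraries. According to the labels 2 replicates, not named, also received TTNBP, an agonist of retinoic acid receptors, whereas the methods of the study give it for the sorted cultures with no such limit. Each condition was deposited as 1 list of domain positions, so no value below has a replicate, no difference could be set against the spread between cultures, and no test was run. Markers of the cell states were not measured by this assay and could not be checked. The depth of the libraries is unknown. The remaining deposited set names neither a cell state nor a treatment, was not used to choose the regions and is called the unnamed set.

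H3K9me2 is a mark of repressed chromatin that EHMT2, in complex with EHMT1, places in broad domains outside pericentromeric heterochromatin. Other methyltransferases of the same residue, such as the SETDB1 and SUV39H enzymes, act at transposable elements, at clusters of zinc finger genes and at pericentromeric repeats. KRAB zinc finger proteins, many of them encoded in such clusters, bind transposable elements and bring SETDB1 to them through TRIM28.

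The regions held promoters of different base composition, and sequences just upstream of 6 RefSeq gene starts are shown because the genes lie in the widest regions and span this range. They were read from RefSeq on GRCm38.p6, the mm10 build of the domain files, 5′ to 3′ toward the gene, in lower case with each CpG in capitals. Bases annotated as exons of protein-coding genes were left out. Gm9758 (chr5:14914900-14915139, minus strand), a gene of the Speer-like cluster in the widest region, had no CpG in its 240 printed bases.
Gm9758: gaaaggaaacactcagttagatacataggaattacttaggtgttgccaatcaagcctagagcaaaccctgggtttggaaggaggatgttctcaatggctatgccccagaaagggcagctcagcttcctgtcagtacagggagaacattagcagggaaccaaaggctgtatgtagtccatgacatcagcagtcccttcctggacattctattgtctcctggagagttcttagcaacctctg
The sequence for Mthfsl (chr9:88719814-88720048, minus strand) lies in the next widest region and held 5 CpG in 235 bases.
Mthfsl: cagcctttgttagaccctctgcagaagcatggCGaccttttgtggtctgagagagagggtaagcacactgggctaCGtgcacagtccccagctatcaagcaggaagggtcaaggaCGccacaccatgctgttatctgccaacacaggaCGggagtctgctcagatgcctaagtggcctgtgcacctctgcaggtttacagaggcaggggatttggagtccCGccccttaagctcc
Slfn2 (chr11:83064862-83065111, plus strand), a Schlafen gene with a role in immune cells, held 2 CpG in 250 bases.
Slfn2: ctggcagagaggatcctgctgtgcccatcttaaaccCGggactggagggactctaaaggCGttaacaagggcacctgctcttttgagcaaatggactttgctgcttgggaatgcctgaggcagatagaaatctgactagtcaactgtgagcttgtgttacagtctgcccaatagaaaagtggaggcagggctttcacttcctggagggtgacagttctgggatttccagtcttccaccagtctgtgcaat
Zfp873 (chr10:82047873-82048122, plus strand), a zinc finger gene, held 6 CpG in 250 bases.
Zfp873: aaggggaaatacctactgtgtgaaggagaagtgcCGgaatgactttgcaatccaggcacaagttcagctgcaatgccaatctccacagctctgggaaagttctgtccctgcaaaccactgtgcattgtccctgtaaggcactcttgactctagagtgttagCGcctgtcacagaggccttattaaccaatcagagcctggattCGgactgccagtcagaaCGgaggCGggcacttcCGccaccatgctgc
Pon2 (chr6:5298456-5298590, minus strand), which encodes a lactonase of the paraoxonase family, held 24 CpG in the whole 250 bases before its start, of which the 135 bases outside exons are printed with 6 CpG.
Pon2: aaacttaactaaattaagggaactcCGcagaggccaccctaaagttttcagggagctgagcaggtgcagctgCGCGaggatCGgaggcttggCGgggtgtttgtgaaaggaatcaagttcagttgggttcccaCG
Castor2 (chr5:134099498-134099710, plus strand), which encodes a protein of the mTORC1 pathway, held 20 CpG in 213 bases.
Castor2: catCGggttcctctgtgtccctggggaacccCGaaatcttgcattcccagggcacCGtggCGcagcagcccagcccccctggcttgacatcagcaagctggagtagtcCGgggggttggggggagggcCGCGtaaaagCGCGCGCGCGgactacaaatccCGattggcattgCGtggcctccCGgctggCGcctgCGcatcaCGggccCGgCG

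The 797 regions covered 32.3 Mb, or 1.31% of chromosomes 1 to 19 and 2.98% of the 1086 Mb outside both DMSO sets. Their median width was 35.0 kb (exact 95% interval of the median over regions 35.0 to 35.0 kb), and the 25th and 75th percentiles were 30.0 and 45.0 kb. Most were therefore narrow, and 157 reached 50 kb and 16 reached 100 kb. Without the minimum width the same rule gave 1966 runs and 46.0 Mb, so the regions held 70.4% of the length gained in both cell states. At the width limit, 183 regions had a width of 25 kb, 7 runs fell 1 base short of it through rounding of the 5 kb grid, and 265 runs had a width of 20 kb.

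**Figure D1:**
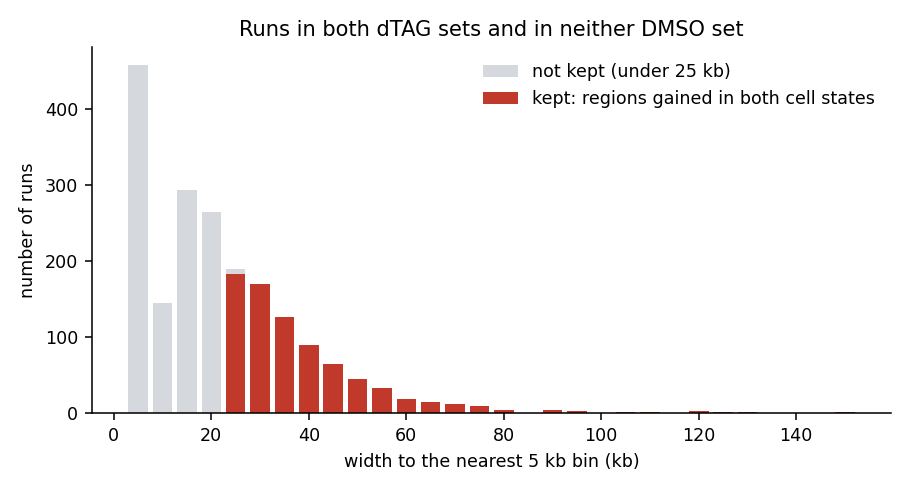
Number of runs (vertical axis) by width to the nearest 5 kb bin (horizontal axis, kb), for bases in both dTAG sets and in neither DMSO set, with the 797 kept regions in red and narrower runs in grey. The 3 regions wider than the axis, up to 820.0 kb, are not drawn, and counts fall from 183 regions at 25 kb to a few at 100 kb or more.

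The regions mostly stood apart from the domains of the DMSO cells. Of the 797, 659 (82.7%, exact binomial 95% interval over regions 79.9% to 85.3%) touched no DMSO domain of either cell state within 200 bases, 120 touched 1 on 1 side and 18 filled a gap between 2 DMSO domains from edge to edge. Those that touched none lay a median of 160.0 kb from the nearest DMSO domain, and 391 of them lay over 100 kb away. The mirrored class, 1435 regions in both DMSO sets and in neither dTAG set, had the opposite arrangement, with 232 (16.2%, 14.3% to 18.2%) that touched no dTAG domain. In mESCs, the dTAG domain around 675 of the regions shared no base with an mESC DMSO domain, and this held for 658 in 2CLCs. These counts come from the sets that chose the regions and describe their arrangement.

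The domains around the regions seldom had the same edges in both cell states. The mESC dTAG and 2CLC dTAG domains holding a region had equal edges within 200 bases for 82 regions (10.3%, 8.27% to 12.6%), and for 77 the region was the entire domain in both. The median width of these domains was 50 kb in both dTAG sets. The 2CLC domain was the wider in 360 regions and the mESC domain in 321. Part of the regions lay in groups. The median distance to the next region was 530.0 kb, and 132 regions (16.6%) lay within 50 kb of another. Of the 551 gaps between DMSO domains that held a region, 146 held 2 or more, with at most 8 in a gap. Whether the regions lay closer together than under random placement was not tested.

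The distribution over chromosomes was uneven. Chromosome 5 held the most, with 76 regions and 5.30% of its bases outside both DMSO sets gained, and 4.20% without the widest region of all, which lies there. Chromosome 13 followed with 4.67% in 56 regions and chromosome 12 with 4.28% in 46. Part of the chromosome 12 regions lay in 1 stretch (chr12:17792105-24492095), several with over 50% repeated 50-mers. The lowest shares were 1.51% on chromosome 2, in 35 regions, and 1.76% on chromosome 19, in 18 regions. The share on chromosome 5 was thus above that of every other chromosome of the 19 with its widest region included, and below those of chromosomes 12 and 13 without it. No such share was computed for chromosome 12 without its repeat-rich stretch, so this order rests on a correction of chromosome 5 alone.

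**Figure D2:**
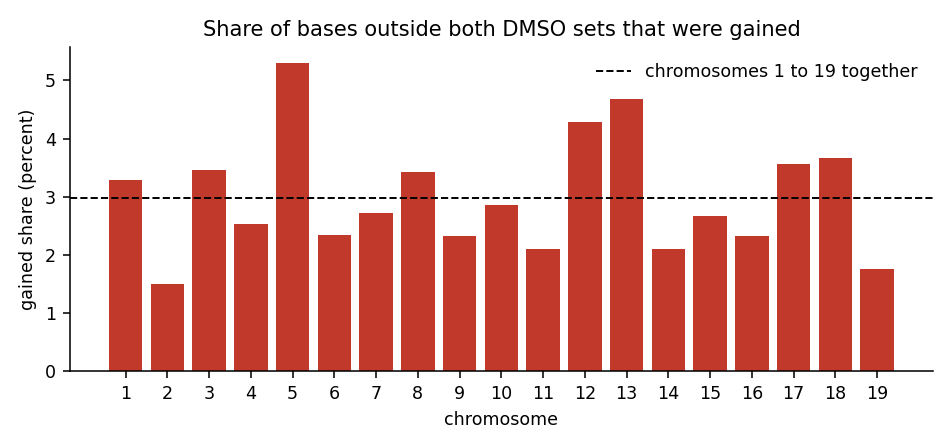
Share of the bases outside both DMSO sets that lay in regions gained in both cell states (vertical axis, percent) on each of chromosomes 1 to 19 (horizontal axis). The dashed line is the share over all 19 chromosomes, 2.98%, and chromosome 5 stands highest at 5.30%.

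The regions were close to domain-free chromatin in median GC content and close to stable domains in soft-masked bases. Their median GC content was 43.9% (43.7% to 44.1%), against 44.1% in regions outside all 4 sorted sets and 39.5% in regions inside all 4. Summed over all bases it was 43.7%, lower than the 45.4% outside all 4 sets and above the 38.7% inside all 4. Soft-masked bases, which the reference marks as interspersed or simple repeats, made up a median of 40.4% (39.6% to 41.0%) of a region, against 24.7% outside all 4 sets and 41.9% inside all 4. A soft-masked share above that of chromosomes 1 to 19 together, 33.5%, was found in 602 of the 797 regions (75.5%) and in 267 of 3617 regions outside all 4 sets (7.38%). Regions lost in both cell states had a median GC content of 40.7% and a soft-masked share of 24.5%, both lower than in gained regions. The differences were not tested.

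Sequence present in several copies was frequent as well. The share of 50-base stretches (50-mers) found again on the same strand of the same chromosome had a median of 9.62% (8.73% to 10.7%), compared with 1.83% (1.78% to 1.86%) outside all 4 sets, 1.91% (1.81% to 2.03%) in lost regions and 10.5% (10.3% to 10.7%) inside all 4. Regions gained in 1 cell state alone were lower, with 2.38% (2.17% to 2.73%) in 312 mESC regions and 3.03% (2.75% to 3.34%) in 806 2CLC regions, although they had the same median width of 35.0 kb. Their soft-masked shares, 31.6% and 31.4%, also lay below that of the regions gained in both. The order was the same among regions under 50 kb, where the median share of repeated 50-mers was 9.63% for those gained in both, 2.21% and 2.92% for those gained in mESCs or 2CLCs alone and 1.38% outside all 4 sets. Regions of this width inside all 4 sets had 13.8%, more than the regions gained in both. The study aligned reads in a mode that keeps those with several matches. The part of such reads in the calls of these regions was not tested.

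**Figure D3:**
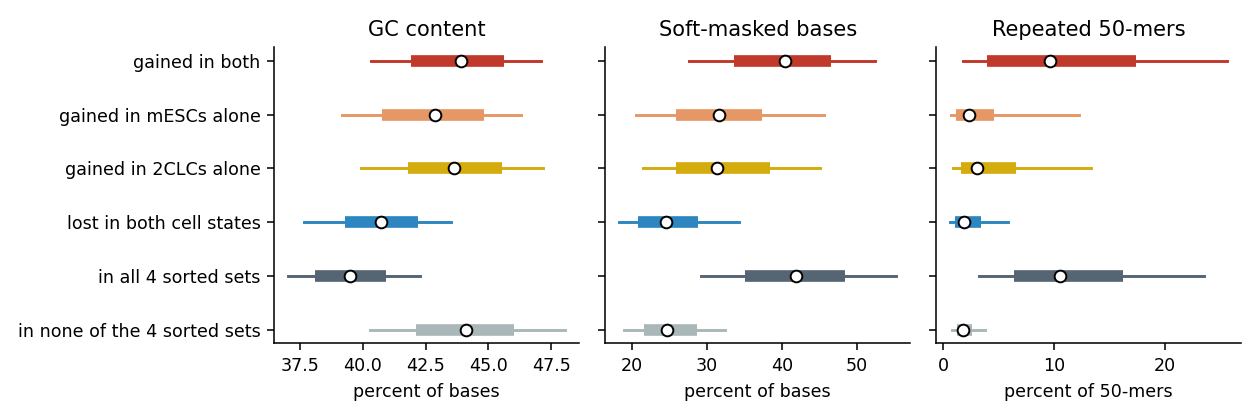
GC content (percent of bases), soft-masked bases (percent of bases) and repeated 50-mers (percent of 50-mers) in 6 classes of regions of at least 25 kb, with circles for medians, thick bars from the 25th to the 75th percentile and thin bars from the 10th to the 90th. The median of regions gained in both cell states lies near that of regions outside all 4 sets for GC content (43.9% and 44.1%) and near that of regions inside all 4 sets for soft-masked bases (40.4% and 41.9%).

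The soft-masked blocks of the regions were longer than those of domain-free chromatin. Unbroken soft-masked blocks of at least 1 kb held 25.9% of the soft-masked bases, against 3.71% outside all 4 sets, 10.8% in lost regions and 30.5% inside all 4. The soft-masked bases of the regions had a median GC content of 42.4% (42.1% to 42.6%), compared with 38.9% inside all 4 sets and 41.3% outside all 4. Summed over all bases, the GC content of soft-masked sequence was 42.3% in the regions and 42.2% outside all 4 sets, so the difference between the medians was not seen there. Bases that were not soft-masked had a median GC content of 44.9% in gained regions and 45.1% outside all 4 sets, and 44.7% against 46.4% when summed over all bases. Of the positions of repeated 50-mers, 79.4% were soft-masked. Repeated 50-mers exceeded 50% in 20 regions. At the other end, 254 regions (31.9%) had under 5% repeated 50-mers.

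By their medians, the regions that touched a DMSO domain were less repetitive than the rest. The 138 regions with contact had a median of 4.18% (3.05% to 6.27%) repeated 50-mers and 35.1% soft-masked bases, against 10.4% (9.61% to 12.0%) and 40.8% in the 659 without contact. Their GC content was 42.5% and 44.1%, respectively. The upper end differed from the medians. Most of the 20 regions with over 50% repeated 50-mers touched a DMSO domain.

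The unnamed set, which the rule did not use and whose libraries are not stated, covered 45.5% of the bases of the regions. It covered 25.5% of the other bases outside both DMSO sets, 96.9% of lost regions and 94.1% of regions inside all 4 sets. Coverage was mostly all or none. It extended over at least 99% of 246 regions (30.9%) and over no base of 386 (48.4%). At least 50% of the length was covered in 354 of the 797 regions (44.4%, 40.9% to 47.9%), against a background of 35.0% of the regions outside all 4 sorted sets. Regions gained in mESCs alone had 49.1% and those gained in 2CLCs alone 43.6% of their bases in the unnamed set, so the regions gained in both lay between them. The 354 regions covered over at least 50% held 7.45 protein-coding gene starts per Mb (exact Poisson 95% interval 6.14 to 8.96) and the other 443 held 16.3 (14.5 to 18.3).

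Counted as starts per Mb, gene density in the regions was nearer to that of domain-free chromatin than to that of stable domains. They held 393 starts of protein-coding genes (GENCODE M21), or 12.2 per Mb (11.0 to 13.4), compared with 14.4 outside all 4 sets, 3.40 inside all 4 and 2.35 in lost regions. Regions gained in mESCs alone (12.4 per Mb) and in 2CLCs alone (12.5 per Mb) had a similar density, so it was not particular to the regions gained in both. The 393 starts were 1.89% of the 20807 protein-coding genes on chromosomes 1 to 19 and 2.52% of the 15591 that start outside both DMSO sets. The starts fell in 279 regions, and 518 regions (65.0%) held none. Of the 393 genes, 168 lay wholly inside a region. Exons of protein-coding genes made up 4.05% of the bases, between 6.83% outside all 4 sets and 1.18% inside all 4. Whole gene bodies, introns included, covered 34.9% of the bases, nearer to the 18.2% inside all 4 sets than to the 59.7% outside all 4. They covered more of the lost regions, 43.05%. In regions gained in mESCs alone and in 2CLCs alone they covered 52.97% and 43.02%. Over all 51229 annotated genes the share was 1.93%, and it was similar for processed pseudogenes (204 of 8924, 2.29%) and lincRNA genes (114 of 5209, 2.19%).

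The promoters in the regions were also nearer to those of domain-free chromatin in CpG content. Among 273 protein-coding genes whose RefSeq start lay in the regions, 107 (39.2%) had a CpG-rich stretch before the start, defined as a GC content of at least 50% and a ratio of observed to expected CpG of at least 0.6 over 250 bases. The share was 55.3% outside all 4 sets, 44.5% over all 15683 promoters, 16.6% in lost regions and 4.41% inside all 4. It was 54.5% in regions gained in mESCs alone and 46.7% in those gained in 2CLCs alone. Pon2 and Castor2, printed above, belong to the CpG-rich promoters, while Gm9758, Mthfsl, Slfn2 and Zfp873 do not.

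Of the gene lists examined, zinc finger genes had the most starts in the regions. Of 404 genes with a Zfp or Zscan symbol, 36 (8.91%) started in a region, against 1.89% of all protein-coding genes, and they fell in 29 regions. In the sets that define the regions, 82 zinc finger genes (20.3%) started in an mESC DMSO domain and 169 (41.8%) in an mESC dTAG domain, while in 2CLCs the numbers were 79 (19.6%) and 174 (43.1%). Over all protein-coding genes the shares were 21.4% and 22.8% in mESCs and 22.1% and 25.5% in 2CLCs. Zfp369 lay wholly in a region of 150.0 kb on chromosome 13 and Zfp873 in one of 125.0 kb on chromosome 10. Zfp85 lay wholly in a region of 95.0 kb (chr13:67707857-67802856) that also held the start of Zfp65. Of the 36, 15 started in the 254 regions with under 5% repeated 50-mers, which held 3.71% of zinc finger starts and 0.60% of all protein-coding starts. Of 30 zinc finger promoters in the regions with a RefSeq entry, 8 were CpG-rich, and over all zinc finger promoters 134 of 333 were (40.2%).

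Replication-dependent histone genes had a similar share, and all came from a single place. Of 67 such genes, 6 (8.96%) started in the regions, all of them in 1 region of 45.0 kb in the histone cluster of chromosome 13 (chr13:21797918-21842917). It held Hist1h2bq, Hist1h2ao, Hist1h4m, Hist1h4n, Hist1h2ap and Hist1h2br, which encode H2A, H2B and H4 proteins used to package newly replicated DNA. In the sets that define the regions, no replication-dependent histone gene started in a domain of either DMSO set. In mESC dTAG 6 did so, which are the genes named above and follow from the rule, and in 2CLC dTAG 22. The region had 7.45% repeated 50-mers, against a median of 9.62% over all regions. This share leaves out copies on the opposite strand or on other chromosomes, and the genes of the region lie on both strands. These genes have near-identical copies, and the placement of reads among copies was not tested. None of the 12 other histone genes started in a region.

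Protocadherin genes, whose clustered members encode adhesion proteins of neurons, had 5 of 67 starts (7.46%) in 3 regions of chromosome 18. Pcdhga1 and Pcdhga2 began in a region of 150.0 kb, with 4.32% and 0.355% of their length inside it, and Pcdhb10 and Pcdhb11 lay wholly in a region of 25 kb. The list of cytosolic ribosomal protein genes had 3 of 96 starts (3.12%), in Rps20, Rpl15 and Rpl9-ps6, the last with the symbol of a pseudogene. Mitochondrial ribosomal protein genes had 3 of 78 (3.85%), in Mrpl15, Mrps28 and Mrps2. Cytochrome P450 genes had 3 of 100 (Cyp4f18, Cyp2t4 and Cyp2d10), and the proteasome list 1 of 49, the assembly chaperone gene Psmg4. With at most 5 starts a list, these shares rest on few genes and are not ranked against the 1.89% of all protein-coding genes.

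The remaining lists held few starts or none. Of 1128 olfactory receptor genes, 1010 started in an mESC DMSO domain and only 88 outside both DMSO sets. Over the whole list, 5 of 1128 (0.443%) started in a region, against 1.89% of all protein-coding genes. They fell in 4 regions, and Olfr11, Olfr1361, Olfr330 and Olfr239 were among them. Of the 88 outside both sets the 5 were 5.68%, against 2.52% of all protein-coding genes outside both sets. With only 5 starts, neither share is ranked against that of all genes. Solute carrier genes had 2 of 358 starts (Slc25a2 and Slc22a13). The keratin list, which includes keratin-associated genes, had 1 of 113 (Krtap5-5). No Hox gene, vomeronasal receptor, serpin, retinoic acid response gene or gene of the H3K9 methylation machinery started in a region, out of 39, 329, 60, 17 and 22 genes. Those that start outside both DMSO sets, the only ones the rule can take, numbered 39, 1, 15, 16 and 19. With a share of 2.52% over all genes outside both sets, no start in lists of this size says little about them.

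The lists of pluripotency, 2-cell and germline genes held 1 start each, too few to set against the 1.89% of all protein-coding genes. Zfp42, which encodes the pluripotency marker REX1, was 1 of 19 pluripotency genes and started in a region of 25 kb on chromosome 8 (chr8:43302952-43327951), 10.0 kb from the nearest DMSO domain, with 25.3% repeated 50-mers and no base in the unnamed set. Eif1a, a translation initiation factor gene, was 1 of 27 2-cell genes, of which 23 already started in an mESC DMSO domain and 3 outside both DMSO sets. Its region of 30.0 kb lay on chromosome 18. Sycp1, which encodes a protein of the synaptonemal complex of meiosis, was 1 of 18 germline genes and started in a region of 30.0 kb on chromosome 3 that touched a DMSO domain.

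**Figure D4:**
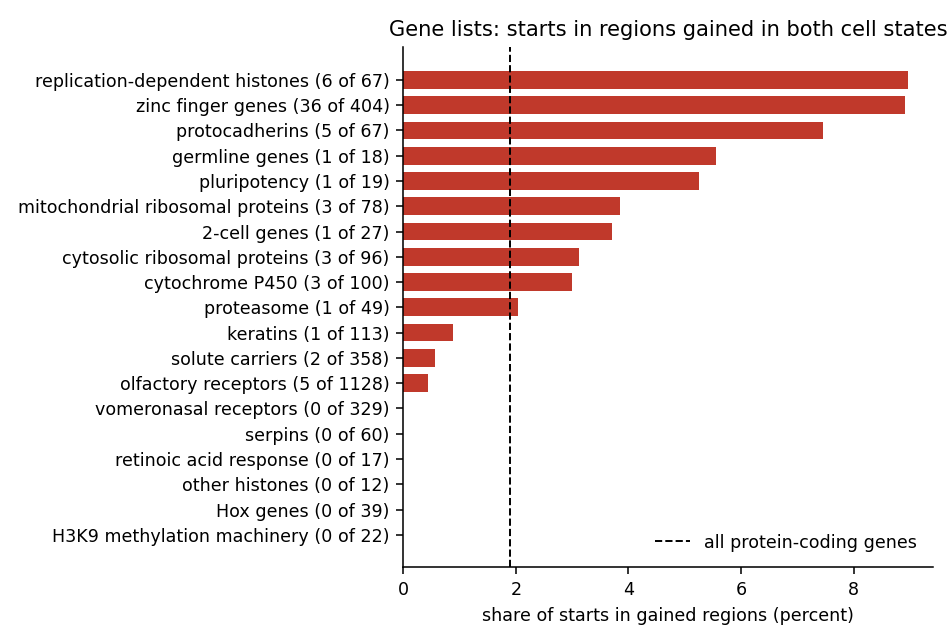
Share of the genes of each list that started in a region gained in both cell states (horizontal axis, percent), with the number of starts and of genes in brackets. The dashed line is the share of all protein-coding genes, 1.89%, and the longest bars are those of histone genes (8.96%, from 1 region), zinc finger genes (8.91%, from 29 regions) and protocadherins (7.46%, from 3 regions).

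The widest region spanned 820.0 kb of chromosome 5 (chr5:14901274-15721272) and filled the gap between 2 DMSO domains. Unknown bases of the assembly made up 395.0 kb of it (48.2%), so its width in sequence is smaller, and 53.8% of its 50-mers were repeated. It held 10 protein-coding starts, the most of any region, among them Gm9758, Speer4e, Gm10354, Gm17019, Gm21149 and Gm21190. Speer genes encode glutamate-rich proteins named for their expression in sperm cells. The mESC dTAG domain around it was 1005 kb wide and the 2CLC dTAG domain 1260 kb, and the unnamed set covered all of it. Unknown bases occurred in 6 of the 797 regions, 0.519 Mb in all.

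A region of 270.0 kb on chromosome 9 (chr9:88581506-88851505) held Mthfsl, the Bcl2 family gene Bcl2a1d and Trim43c, a gene of the Trim43 family known from the preimplantation embryo. It touched a DMSO domain on 1 side, and 28.0% of its 50-mers were repeated. A region of 180.0 kb on chromosome 12 (chr12:20897101-21077100) held the start and the first 31.0% of Asap2, a gene for a regulator of ARF GTPases. It formed the end of a 2CLC dTAG domain of 605.0 kb and lay near the end of an mESC dTAG domain of 3295 kb, with 53.1% repeated 50-mers. The region of Gm10775 and Zfp369 on chromosome 13 (chr13:65227860-65377859, 150.0 kb) likewise lay in wide dTAG domains, 615.0 kb (mESC) and 640.0 kb (2CLC) wide. These 3 regions thus adjoined a DMSO domain, while others of the widest stood alone.

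Among those standing alone, the region of Slfn2 and Slfn1 on chromosome 11 (chr11:83044724-83174723, 130.0 kb) lay 390.0 kb from the nearest DMSO domain. It was an entire domain in mESC dTAG, reached 150.0 kb in 2CLC dTAG and had 49.1% repeated 50-mers. The region of Slc25a2, Taf7, Pcdhga1 and Pcdhga2 on chromosome 18 (chr18:37519567-37669566, 150.0 kb), between protocadherin clusters, lay 110.0 kb from a DMSO domain, and was an entire domain in 2CLC dTAG. A region of 125.0 kb on chromosome 10 (chr10:82044892-82169891) held Zfp873, BC024063 and AU041133, lay 10.0 kb from a DMSO domain and had only 2.04% repeated 50-mers. A high share of repeated 50-mers was therefore not common to all of the widest regions. Soft-masked bases made up 48.2%, 55.3% and 39.4% of the regions on chromosomes 11, 18 and 10.

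The other 3 of the 10 widest held no protein-coding start. They were chr12:23092098-23222097 (130.0 kb), with 65.0% repeated 50-mers, chr17:13556997-13681996 (125.0 kb), with 5.61%, and chr5:141996105-142116104 (120.0 kb), with 2.73%. The region on chromosome 17 held 63000 unknown bases of the assembly, so its width in sequence is smaller and its 5.61% covers the known bases only. The region on chromosome 12 lay between 2 DMSO domains in contact with both, and the others lay 155.0 and 100.0 kb from the nearest one. The unnamed set covered 84.6%, 100.0% and 95.8% of the 3 regions.

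**Figure D5:**
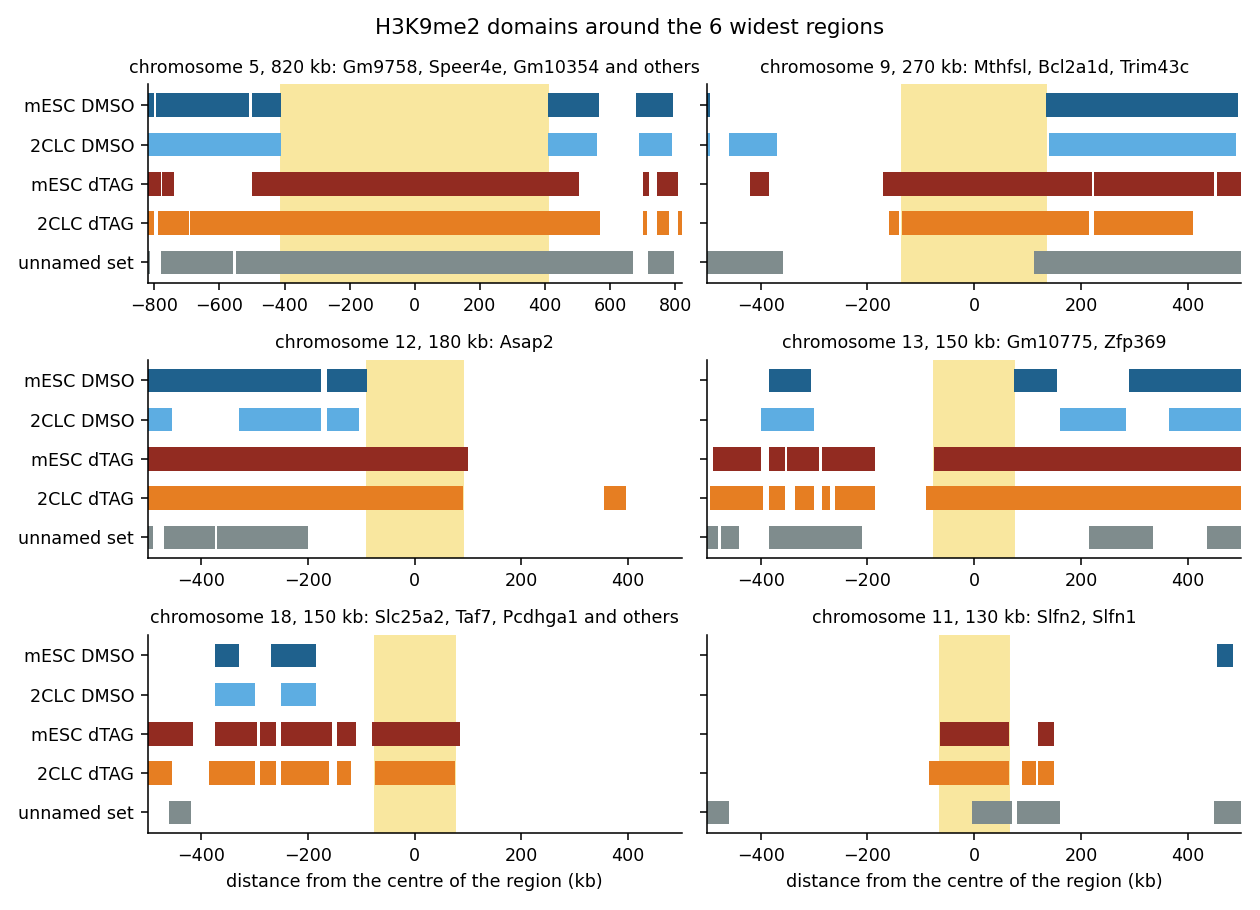
H3K9me2 domains of the 4 sorted sets and the unnamed set (rows) around the 6 widest regions, by distance from the centre of the region (horizontal axis, kb), with the region shaded. The regions on chromosomes 5, 9, 12 and 13 adjoin a DMSO domain, and those on chromosomes 18 and 11 lie 110.0 and 390.0 kb from one.

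The regions with the most protein-coding starts, after the one on chromosome 5, were small gene clusters. A region of 30.0 kb on chromosome 4 (chr4:88759500-88789499) held 7 starts, among them Gm13283, Gm13290, Gm13289, Gm13272, Ifnz and Gm13276 of the interferon cluster, whose products act in antiviral signalling. Of its 50-mers, 84.3% were repeated, its GC content was 52.0% and its ratio of observed to expected CpG was 0.473, against a median of 0.224 over the regions. The histone region on chromosome 13, with 6 starts, had a ratio of 0.423. A region of 55.0 kb on chromosome 8 (chr8:72187914-72242913) held 5 starts, of Hsh2d, Cib3, Gm11034, Fam32a and Ap1m1, lay 405.0 kb from a DMSO domain and had 26.8% repeated 50-mers. None of these 3 had a base in the unnamed set, and the region on chromosome 18 with 4 starts had none either.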

How the data were processed

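H3K9me2 domains were measured by ULI-NChIP in 4 sorted conditions (mESC or 2CLC, DMSO or dTAG-13 for 72 h). The authors aligned reads to mm10 with STAR, in a mode that keeps reads with several matches, removed duplicates with Picard, scaled coverage with deepTools and took log2 ratios of immunoprecipitation to input in bins on a 5 kb grid. Domains began at bins above a high percentile and were extended until a bin below a low one. Pooling of replicates, and whether percentiles were set for each condition, was not given in the sources used here. The submitters' processing notes name STAR 2.7.10, Picard 2.26.0 and deepTools 3.5.1. The authors deposited domain positions with a score of 0 throughout, so no height or depth stands behind a domain.

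Positions were overlaid base by base with Python 3.11.15 and numpy 2.4.6. Comparison classes were chosen with the mirrored rule. GC, soft-masked bases and repeated 50-mers came from GRCm38.p6, gene starts from GENCODE M21 and promoters from RefSeq, with an entry for 276 of the 393 genes, and for 273 protein-coding genes a RefSeq start inside the regions. Of the domains, 0 ended past their chromosome in this assembly. Intervals (scipy 1.17.1) are at 95%, exact binomial for shares and medians of regions and exact Poisson for starts per Mb, and they cover variation along the genome and not between cultures. Neighbouring regions and genes of 1 cluster are not independent. The scripts were tested on simulated data.

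The regions and gene lists were chosen with earlier results of these data known. Regions named were the 10 widest, the 5 with the most protein-coding starts and the runs next to the width limit. Ties were broken by width for starts, then by chromosome and start. The last of the 10 widest (120.0 kb) had a tie on chromosome 6 and the last of the 5 with most starts (4) one on chromosome 1. Genes named were those starting in the first 2 groups (up to 6 per region), up to 4 per list in order of region width, and 6 genes with a promoter entry in the widest regions, 1 per region, with chromosome 18 left out. Alternatives changed the minimum width, merging, domain width, DMSO edges, chromosomes and gene counting.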

Additional observations from a re-analysis of the deposited data

Results flagged for a closer look

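Chromosome X, which the rule leaves out, also held regions of this kind. The same steps gave 22 regions and 0.880 Mb there, 2.58% of the bases of chromosome X outside both DMSO sets, with a median GC content of 41.4%, 7.45% repeated 50-mers and 2 protein-coding starts. They were listed because they are a signal outside the chromosomes described, and no control library gives a level to set them against. Chromosome Y gave 0 regions.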

How the results depend on the processing

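No paired analysis was possible because each condition is 1 list of domains and the columns carry no replicate number. Leaving out a replicate was not possible for the same reason.

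Width and domain limits moved the counts most. A minimum width of 15 kb gave 1359 regions, a median width of 25 kb, 20.3% touching a DMSO domain and 41.3% soft-masked bases. A minimum of 50 kb gave 157 regions, 11.4 Mb, a median width of 60.0 kb, 22.9% touching, 51.1% of bases in the unnamed set, 10.7 protein-coding starts per Mb and 122 starts. With domains of at least 50 kb only, there were 338 regions and 19.3 Mb, with a median width of 50 kb, 32.8% touching, 43.2% GC, 39.2% soft-masked bases and 259 starts. Merging over gaps of up to 11 kb raised the share touching to 21.6%. Counting all annotated genes gave 988 starts, and any overlap of the gene body gave 738 protein-coding genes. In regions with under 5% repeated 50-mers, added after the data were seen, the zinc finger share was 3.71%. The share of all protein-coding starts fell as well, to 0.60%, from 1.89% over all regions. Apart from what the settings themselves remove, the cause was not tested. Leaving out each chromosome in turn kept all results within their interval or within a factor of 1.5, with 721 to 779 regions, 43.8% to 44.0% GC, 40.2% to 40.5% soft-masked bases, 9.20% to 9.75% repeated 50-mers and a zinc finger share of 8.16% to 9.65%.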
